A study of Mus musculus with 8 samples.

Results

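Lrrc17, Tnfrsf11b, Tnfsf11 and Csf1 encode secreted or membrane-bound proteins through which cells of the bone marrow stroma act on osteoclasts, the bone-resorbing cells that arise from the monocyte and macrophage lineage. These 4 genes, of 17592 measured, are described here in mouse mesenchymal stem cells exposed to ropivacaine. Lrrc17 was chosen by its measured fall between ropivacaine-treated and untreated cells, and the other 3 were added for their established role in osteoclast formation. The choice was made with results of these arrays known, so the difference between the groups is given for all 4 as a description, and no call is read as support. All 4 genes have 1 row each in the deposited table and all entered the comparison, which had no filter on dim genes.

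Osteoclast precursors need 2 signals from their surroundings. Macrophage colony-stimulating factor, the product of Csf1, keeps the precursors alive and dividing. RANKL, the product of Tnfsf11, then drives them to fuse and mature by binding its receptor RANK on their surface. Osteoprotegerin, the product of Tnfrsf11b, is a soluble decoy receptor that captures RANKL, so the balance of RANKL and osteoprotegerin made by stromal and bone-forming cells sets how much signal reaches the precursors. The product of Lrrc17 is a secreted protein with leucine-rich repeats, which in mouse has been described as an osteoblast-derived inhibitor of RANKL-induced osteoclast formation.

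The cells were bone-marrow-derived mesenchymal stem cells, stromal cells able to form bone, cartilage and fat, cultured to passage 10 from mice of the strain given as C57B6/J. The study compared 2 groups of 4 arrays, labelled MSC_ROPI, cells collected after 24 h with ropivacaine, and MSC_control, cells without treatment collected at 24 h. Ropivacaine is a local anaesthetic of the amide type and acts on sodium channels of nerve cells. Its dose is 100 uM in the annotation of each sample and in the design text and 100 mM in the treatment protocol, and it is given here as 100 uM. The age and sex of the animals, and whether replicates came from separate animals or cultures, are not stated in the labels, so errors and p-values measure the spread between these arrays, which may be technical. Because the rows carry Ensembl identifiers without names, markers of mesenchymal, haematopoietic and endothelial cells were not analysed here and the labelled cell type was not checked.

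Values are log2 expression after RMA, a method that corrects background, equalises the arrays and summarises the probes of each gene, so a difference of 1 is a doubling. The median of every array was 6.91. Ropivacaine replicate 3 and control replicate 2 had the lowest estimated array weights (0.708 and 0.580, against 0.909 to 1.55 for the other 6 arrays). Results are given below with and without these 2 arrays. On the first principal component of all genes, whose sign is arbitrary, control replicate 2 lay farthest out at 18.67. Ropivacaine replicate 3, at 6.57, lay beside control replicates 3 and 4 (3.59 and 4.50), and control replicate 1, at -6.35, lay beside the other ropivacaine arrays (-11.67 to -6.89).

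Before the values, 2 promoter stretches are shown, those of Lrrc17 and Tnfsf11, the members with the largest difference between groups. They come from RefSeq on build GRCm38.p6, matched by symbol, and each runs 5′ to 3′ on the strand of the gene from 250 bases before its start to 50 bases after it. Capitals mark the motif TATAAA (the TATA box) on either strand. The Lrrc17 stretch lies at chr5:21543277-21543576 on the plus strand and the Tnfsf11 stretch at chr14:78307994-78308293 on the minus strand.
Lrrc17: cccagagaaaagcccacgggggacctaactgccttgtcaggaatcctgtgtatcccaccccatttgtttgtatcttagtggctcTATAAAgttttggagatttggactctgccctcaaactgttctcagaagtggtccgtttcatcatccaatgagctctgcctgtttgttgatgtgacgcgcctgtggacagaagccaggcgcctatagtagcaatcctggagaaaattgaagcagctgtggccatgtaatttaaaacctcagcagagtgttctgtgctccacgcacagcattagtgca
Tnfsf11: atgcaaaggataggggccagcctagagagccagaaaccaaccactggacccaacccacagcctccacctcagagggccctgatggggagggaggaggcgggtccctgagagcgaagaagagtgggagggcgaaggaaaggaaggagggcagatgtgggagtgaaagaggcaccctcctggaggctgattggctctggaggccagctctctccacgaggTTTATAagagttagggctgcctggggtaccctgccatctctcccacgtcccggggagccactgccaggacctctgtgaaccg

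In Lrrc17 the TATA motif began 166 bases before the start, far from the usual place of a TATA box, and in Tnfsf11 it lay on the opposite strand, beginning 32 bases before the start. Of 32851 promoter stretches of this length, 13.6% held the motif on either strand. The Csf1 stretch held none, and instead had 2 copies of GGGCGG (the GC box, found in 35.7% of stretches). CCAAT occurred once in Lrrc17 and once in Tnfsf11 (37.4% of stretches), and TGACG, the core of the cyclic AMP response element, once in Lrrc17 (20.8% of stretches). TGANTCA (the AP-1 site) and TGTGGT (a Runx site) were in none of the 3 stretches, against 7.8% and 16.8% of all. The arrays measured transcripts and not promoters, and these matches describe letters only.

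Lrrc17 (ENSMUSG00000039883), the inhibitor with leucine-rich repeats, was lower on every ropivacaine array than on any control array. Its log2 expression was 7.66, 7.72, 7.61 and 7.69 in ropivacaine replicates 1 to 4, against 8.38, 8.59, 8.58 and 8.61 in control replicates 1 to 4. The ropivacaine arrays lay within 0.11 of each other, and the highest of them was 0.66 below the lowest control array. Control replicate 1 sat apart below the other control arrays and still far above the treated ones. The group means were 7.67 ± 0.05 with ropivacaine and 8.54 ± 0.11 in control cells (SD, n = 4 each). Lrrc17 thus had a log2 fold change of -0.87 (SE 0.06, 95% interval -1.001 to -0.734), so the ropivacaine level was 54.8% of the control level, or 1.82-fold lower. In these mixed RNA extracts, fewer cells with Lrrc17 transcripts and less Lrrc17 RNA per cell cannot be told apart.

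The fall of Lrrc17 was large for these arrays. The median size of the log2 fold change over all genes was 0.06, and Lrrc17 ranked 11 by size. Larger falls were seen for 5 genes, of which 0 were called, and all 5 had a mean signal of 5.78 or less, against 8.11 for Lrrc17. Its distance between the nearest arrays of the 2 groups, 0.66, ranked 2 among all genes. The spread of Lrrc17 within groups was ordinary, with a pooled SD of 0.08 against a median of 0.09 over all genes. In the fit across all genes, 1 of the 4 members was called (limma, Benjamini-Hochberg adjusted p below 0.05), namely Lrrc17, where 0.404% of all genes were called in either direction and 0.119% were called lower. Groups that did not overlap were also found for 1 of the 4, against 6.70% of all genes. The fall of Lrrc17 was -0.83 (SE 0.07) with ropivacaine replicate 3 and control replicate 2 left out, and lay between -0.92 and -0.85 when any single array was left out.

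**Figure D1:**
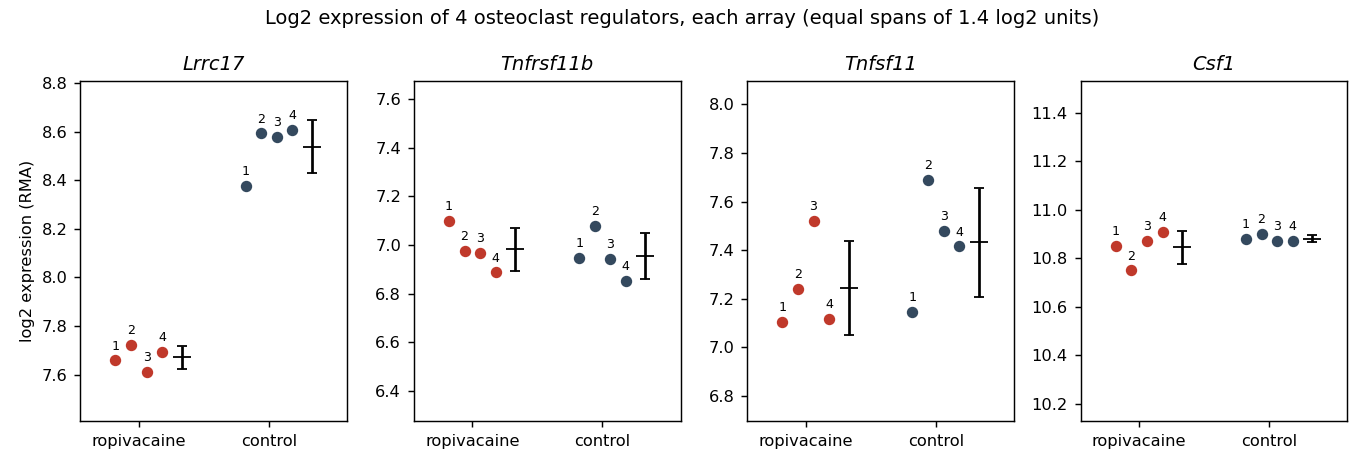
Log2 expression (vertical axis, RMA values) of Lrrc17, Tnfrsf11b, Tnfsf11 and Csf1 on each ropivacaine (red) and control (dark) array, with the replicate number above each point and the mean with SD beside it. Each panel spans 1.4 log2 units. Only the Lrrc17 groups are separate, with 7.61 to 7.72 in ropivacaine arrays and 8.38 to 8.61 in control arrays.

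Tnfrsf11b (ENSMUSG00000063727), the gene of osteoprotegerin and the other inhibitor among the members, had nearly equal group means. Its log2 expression was 7.10, 6.98, 6.97 and 6.89 in ropivacaine replicates 1 to 4, against 6.95, 7.08, 6.94 and 6.85 in control replicates 1 to 4. The groups overlapped over most of their ranges. The means were 6.98 ± 0.09 with ropivacaine and 6.96 ± 0.09 in control cells (SD, n = 4 each), with a log2 fold change of 0.03 (SE 0.06). It was not called (limma adjusted p = 0.935 over all genes). The 95% interval, -0.12 to 0.17, leaves room for a level up to 1.13-fold higher or 1.08-fold lower with ropivacaine. The sign of this small difference is not settled, since it was -0.01 without ropivacaine replicate 1 and -0.01 without control replicate 4. Leaving out both arrays of lowest weight gave 0.07 (SE 0.07).

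Tnfsf11 (ENSMUSG00000022015), the gene of RANKL, varied most between arrays of the same group. Its log2 expression was 7.10, 7.24, 7.52 and 7.12 in ropivacaine replicates 1 to 4, against 7.14, 7.69, 7.48 and 7.42 in control replicates 1 to 4. The groups overlapped, with ropivacaine replicates 2 and 3 inside the control range and control replicates 1, 3 and 4 inside the ropivacaine range. Ropivacaine replicate 3 and control replicate 1 are also the 2 arrays that lay on the side of the other group on the first principal component. The values without each of these 2 arrays are given below. The highest array of each group was one of the 2 of lowest weight. The means were 7.25 ± 0.19 with ropivacaine and 7.43 ± 0.22 in control cells (SD, n = 4 each). The pooled SD of 0.21 was larger than that of 89.3% of all genes.

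The log2 fold change of Tnfsf11 was -0.19 (SE 0.13, 95% interval -0.48 to 0.11), and it was not called (limma adjusted p = 0.707 over all genes). The interval runs from a level 1.39-fold lower to one 1.08-fold higher with ropivacaine. Its value depended on single arrays. Leaving out ropivacaine replicate 3 gave -0.28, leaving out control replicate 1 gave -0.28 and leaving out control replicate 2 gave -0.10, and the gene was not called in any of these fits (limma adjusted p = 0.447, 0.446 and 0.885). With ropivacaine replicate 3 and control replicate 2 both left out, Tnfsf11 differed by -0.19 (SE 0.10). The interval with all 8 arrays includes 0. Without ropivacaine replicate 3 it ran from -0.55 to -0.01, and without control replicate 1 from -0.55 to -0.01. In each of these fits 0 lay just outside it, unadjusted for the number of genes. Ropivacaine replicate 3 was the highest of its group and control replicate 1 the lowest, so leaving out either one moves the difference away from 0. Every other fit with a single array left out had an interval that included 0. So did the fit without both arrays of lowest weight (-0.42 to 0.035).

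Csf1 (ENSMUSG00000014599), the gene of macrophage colony-stimulating factor, gave a bright and steady signal. Its log2 expression was 10.85, 10.75, 10.87 and 10.91 in ropivacaine replicates 1 to 4, against 10.88, 10.90, 10.87 and 10.87 in control replicates 1 to 4. The 4 control arrays lay within 0.03 of each other, inside the wider range of the ropivacaine arrays. The signal of Csf1 was above that of 95.7% of genes, although levels of different genes on an array also reflect their probes. The means were 10.85 ± 0.07 with ropivacaine and 10.88 ± 0.01 in control cells (SD, n = 4 each), and values above 10 were deposited in steps of 0.01. The log2 fold change was -0.04 (SE 0.04, 95% interval -0.13 to 0.06), and the gene was not called (limma adjusted p = 0.86 over all genes). The interval allows a level 1.10-fold lower or 1.04-fold higher with ropivacaine. Most of the small difference came from ropivacaine replicate 2, without which it was -0.003. Leaving out both arrays of lowest weight gave -0.04 (SE 0.05).

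**Figure D2:**
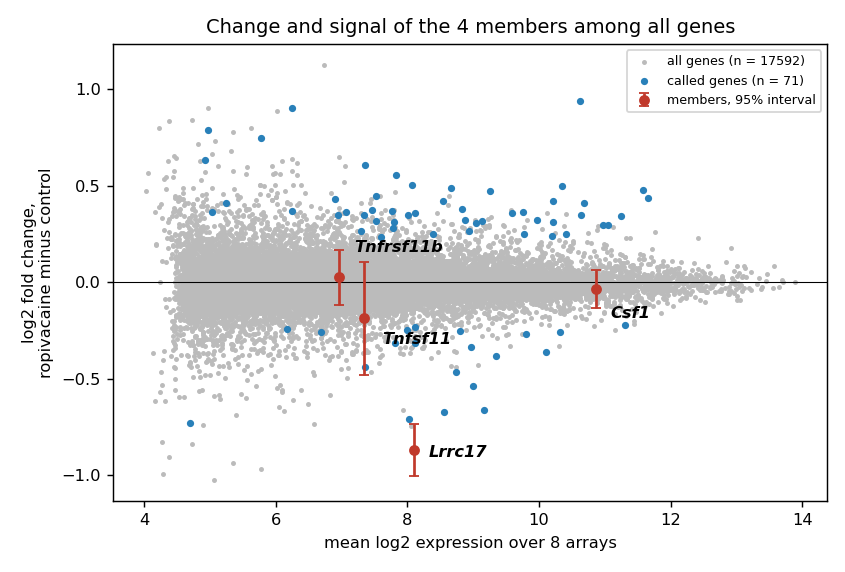
Log2 fold change (vertical axis, ropivacaine minus control) against mean log2 expression over the 8 arrays (horizontal axis) for 17592 genes in grey, the 71 called genes in blue and the 4 members in red with 95% intervals. Lrrc17 lies at -0.87, below every other called gene, and the intervals of Tnfrsf11b, Tnfsf11 and Csf1 include 0.

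Set side by side, the log2 fold changes were -0.87 for Lrrc17, -0.19 for Tnfsf11, -0.04 for Csf1 and 0.03 for Tnfrsf11b. Lrrc17 was picked for its fall on these same arrays, so its distance from the other 3 was fixed by that choice and was not tested. The Lrrc17 log2 fold change lay between -0.92 and -0.83 without the 2 arrays of lowest weight or any single array. In these fits none of the other 3 genes passed the threshold.

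**Figure D3:**
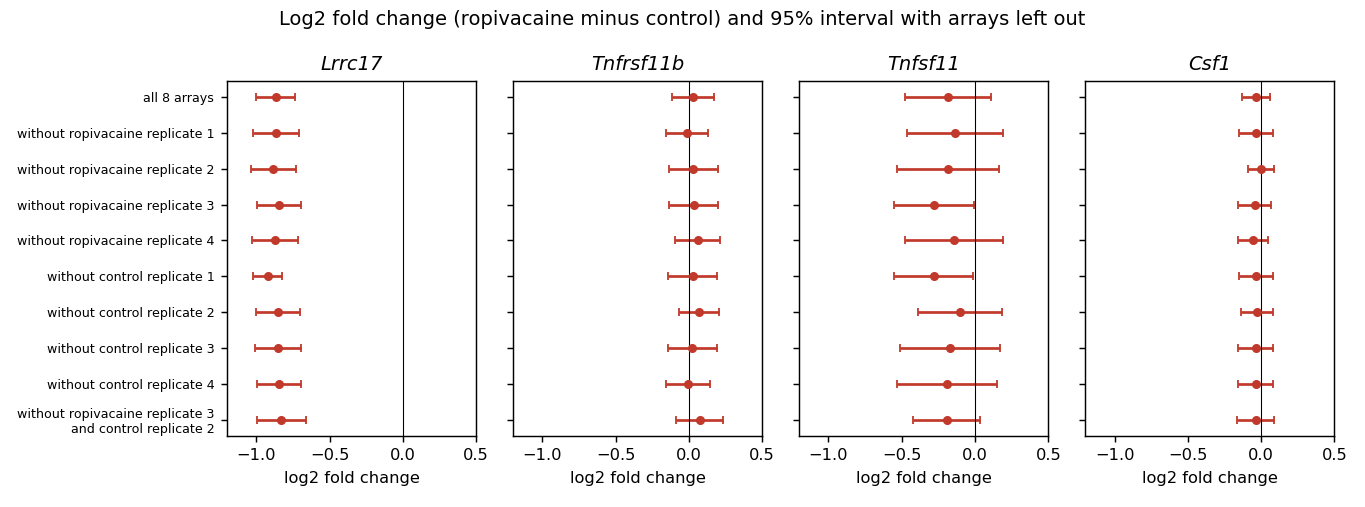
Log2 fold change with 95% interval (horizontal axes, ropivacaine minus control) of each member with all 8 arrays, with each array left out and without both arrays of lowest weight. Lrrc17 stays between -0.92 and -0.83 in all of these fits, Tnfsf11 moves between -0.28 and -0.10, and Tnfrsf11b and Csf1 stay near 0.

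The balance of RANKL and osteoprotegerin was followed as the difference between log2 Tnfsf11 and log2 Tnfrsf11b within each array. Because different probes read the 2 genes, the difference itself is not a ratio of transcripts, and only its change between groups can be read. It was 0.00, 0.26, 0.56 and 0.23 in ropivacaine replicates 1 to 4, against 0.20, 0.61, 0.54 and 0.56 in control replicates 1 to 4. Ropivacaine replicates 2, 3 and 4 lay within the control range, and control replicate 1 lay below these 3 arrays. The mean was 0.26 ± 0.23 with ropivacaine and 0.48 ± 0.19 in control cells (SD, n = 4 each). The change of -0.21 was about as large as the pooled SD between arrays of a group, 0.21, and the groups overlapped. No test was made of this value, which combines 2 of the chosen genes. It ranged from -0.31 to -0.13 when single arrays were left out, with -0.27 without both arrays of lowest weight.

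**Figure D4:**
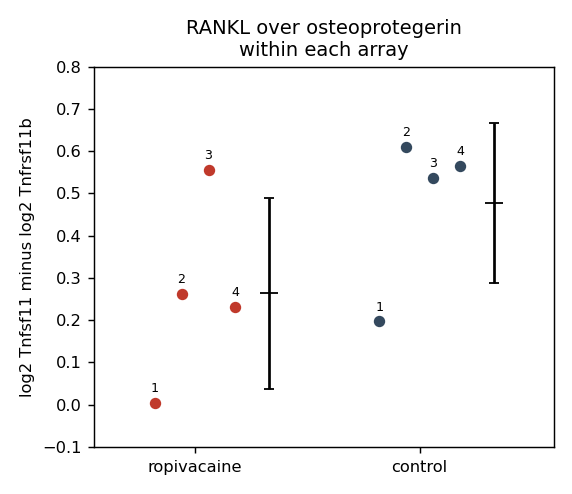
Log2 Tnfsf11 minus log2 Tnfrsf11b (vertical axis) on each ropivacaine (red) and control (dark) array, with the replicate number above each point and the mean with SD beside it. The groups overlap, with ropivacaine replicates 2, 3 and 4 (0.26, 0.56 and 0.23) inside the control range of 0.20 to 0.61.

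Genes with a pattern like that of Lrrc17 were sought by the root mean square difference between profiles over the 8 arrays, each profile being the log2 value minus the mean of that gene. The median of this distance from Lrrc17 over all other genes was 0.447, and 7 genes lay within 0.2. The nearest was ENSMUSG00000029372, at a distance of 0.105, with 8.83 ± 0.06 with ropivacaine and 9.49 ± 0.10 in control cells (SD, n = 4 each). ENSMUSG00000029838 followed at 0.113, with 7.68 ± 0.08 with ropivacaine and 8.39 ± 0.06 in control cells (SD, n = 4 each). Nearest to the Lrrc17 profile with its sign turned was ENSMUSG00000031762, at 0.099, with 11.10 ± 0.02 with ropivacaine and 10.16 ± 0.08 in control cells (SD, n = 4 each). Next came ENSMUSG00000049723 at 0.141, with 6.69 ± 0.18 with ropivacaine and 5.79 ± 0.07 in control cells (SD, n = 4 each). These 4 were picked for their likeness to a gene chosen by its fall, so their differences between groups are descriptions.

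The other members were not among the genes near Lrrc17. Their distances from its profile were 0.379 for Tnfsf11, 0.426 for Csf1 and 0.460 for Tnfrsf11b, against 0.440 for a gene that does not vary at all. The Lrrc17 profile is mostly its difference between groups, by which it was chosen. These distances therefore largely restate the log2 fold changes and are not a separate result. Csf1, with the flattest profile, had 8814 genes within 0.1, and Tnfrsf11b had 5052. Tnfsf11, with its wide spread within groups, had 91.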

How the data were processed

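RNA of 8 samples was hybridised to single-colour Affymetrix mouse Exon 1.0 ST arrays, per the labels' protocols. The authors deposited log2 expression values, 1 row per Ensembl gene and 1 column per array, and the submitters' processing notes name RMA as the method. The version of RMA, the probe set definition and the genome build are not given in the sources read. Detection calls and scan dates were not used here, so signal over background is unknown and no batch was tested. Precision is limited by having 4 arrays per group.

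Arrays were grouped by title. All 17592 genes were fitted with limma 3.58.1 in R 4.3.3 (2 groups, no covariate, two-sided) with a threshold of 0.05 on the Benjamini-Hochberg adjusted p. Simulated data with known answers were used to test the fit. Figures were drawn with matplotlib 3.10.9. The members, lists and tests were chosen with earlier results of these data known. The 4 members were named by the definition of the gene set. None of the other identifiers could be matched to a symbol, because the RefSeq table used here (GRCm38.p6) lists no Ensembl identifiers. Lists of other osteoclast regulators, RANKL and M-CSF signal carriers, small leucine-rich proteins and cell type markers were therefore not applied. The likeness measure and the number of genes named by it were set by rule, and the promoter motifs were picked after the values were seen. RefSeq held promoter stretches for 3 of the members. The alternatives were other scalings, limma settings, array weights, removal of dim genes, a block for the replicate number, arrays left out and a stricter threshold.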

Additional observations from a re-analysis of the deposited data

Results flagged for a closer look

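One value stood far from the other arrays of its group. Lrrc17 read 8.38 in control replicate 1, while control replicates 2, 3 and 4 read 8.59, 8.58 and 8.61. Its distance from the next control array made up 0.882 of the whole control range, and Dixon's test marks 4 values at a share above 0.829. Of 10 such sets examined, 1 was marked, and chance alone marks about 1 in 20. The same array was also the lowest control array for Tnfsf11, at 7.14. Without it the log2 fold change of Lrrc17 was -0.92 (SE 0.04). The cause was not tested.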

How the results depend on the processing

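Lrrc17 was lower with ropivacaine and called in each of the 17 alternatives that were run, with log2 fold changes from -0.92 to -0.83. Many of these alternatives could not move the fold change. Other limma settings, removal of dim genes and the replicate block leave the group difference as it is, at -0.87. The other scalings also gave -0.87, since the arrays already shared their median and maximum and had nearly equal quartiles. Only array weights and left-out arrays could change it, and Lrrc17 was chosen by this same difference. Its limma adjusted p came closest to the threshold with the replicate block (0.0484) and without both ropivacaine replicate 3 and control replicate 2 (0.0469). Tnfrsf11b, Tnfsf11 and Csf1 were called in none of theirs. Tnfsf11 and Csf1 kept their direction, and Tnfrsf11b turned to -0.012 without ropivacaine replicate 1 and to -0.008 without control replicate 4, within a range of -0.012 to 0.068 over the fits with a single array left out. The change of Tnfsf11 minus Tnfrsf11b stayed negative, from -0.31 to -0.13.

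The count of called genes, 71, against which the members are read, depended strongly on the setting. It was 135 with an intensity trend, and 114 and 179 without the dimmest 25% and 50% of genes. In the latter settings fewer genes entered both the limma fit and the adjustment, and their effects were not separated. A threshold of 0.01 left 15 genes. The count was between 15 and 31 with a single array left out, and 7 without both arrays of lowest weight, where fewer arrays were used. The replicate block left 3 called genes, all among the 71, and Lrrc17 was one of them. No pairing is stated in the labels, and the deviations of arrays with the same number correlated at 0.138, 0.009, 0.056 and 0.070. The causes of the shifts in the count were not tested. How far dim signals limit these values is unknown, since background signals were not used here.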

Other observations

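For 2 of the members the lowest array carried the same replicate number in both groups. How many of all genes have such a match was not counted, so it is not read as a sign of pairing. Tnfsf11 was lowest in replicate 1, at 7.10 with ropivacaine and 7.14 in control cells. Tnfrsf11b was lowest in replicate 4, at 6.89 with ropivacaine and 6.85 in control cells. With the replicate number as a block, the standard error of the Tnfsf11 log2 fold change was 0.09, against 0.13 without it, and the gene was not called (limma adjusted p = 0.586, log2 fold change -0.19). The standard error was also smaller with the block for Tnfrsf11b (0.054 against 0.062) and Lrrc17 (0.054 against 0.059). The block leaves fewer degrees of freedom, so a smaller standard error need not give a narrower interval. For Lrrc17 the 95% interval was slightly wider with the block (-1.003 to -0.732) than without it (-1.001 to -0.734). For Tnfsf11 and Tnfrsf11b it was narrower with the block. For Csf1 it was larger (0.048 against 0.043).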
